A study of Mus musculus with 6 samples.

Results

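The 10 receptor genes described here are Klrb1c, Klrb1b, Klrb1f, Ncr1, Klrk1, Klrd1, Klrc1, Klrc2, Klrg1 and Klre1, taken by symbol from the 24091 genes of a read count table. They encode the NKR-P1, NKG2 and NKp46 receptors of natural killer cells and innate lymphoid cells. The mRNA of group 1 innate lymphoid cells (ILC1) from mouse liver was sequenced in 2 groups of 3 libraries. In the AML group, C57BL/6 mice had received an intravenous injection of 1000000 C1498 cells, a C57BL/6 acute myeloid leukaemia line that can be passed between mice, and their livers were taken 14 days later. In the healthy group, C57BL/6 mice had received no C1498 cells, and their livers carry the same day label, 14. The mice are labelled with no other allele or agent. The sources used here do not give their age or sex, the way the ILC1 were sorted or whether mice were pooled. The leukaemia is a single injected line. Separate animals are not stated either, so the p-values speak of the spread between libraries alone, part of which may be technical.

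Natural killer cells and ILC1 weigh signals from activating receptors against signals from inhibitory receptors on the cells they touch. NKp46 (Ncr1), NK1.1 (Klrb1c) and NKG2D (Klrk1) are activating receptors that have no signalling tail of their own and rely on adaptor proteins. NKG2A (Klrc1) and NKG2C (Klrc2) each pair with CD94 (Klrd1) and read the MHC molecule Qa-1, and NKG2A inhibits while NKG2C activates. NKR-P1B (Klrb1b) and KLRG1 (Klrg1) are inhibitory. Liver ILC1 of C57BL/6 mice are usually recognised by NK1.1 and NKp46 together with the integrin CD49a.

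In these libraries 8 of the 10 genes were in the top 3% of tested genes by level per length. None of the 10, and none of all 12469 tested genes, passed an edgeR adjusted p of 0.05 between AML and healthy libraries. The values of Klrc2, Klrk1, Ncr1 and Klrb1f were higher in every AML library than in every healthy library, as were those of 8.2% of all tested genes. For these receptor genes the AML to healthy ratios lay between 1.15 and 1.31. The values of Klrb1c, Klrb1b, Klrc1, Klrd1, Klre1 and Klrg1 overlapped between the groups.

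Of the 10 genes, 9 lie on mouse chromosome 6 of the mm10 build. Klrb1c (128778485 to 128826315), Klrb1b (128813706 to 128826315), Klrb1f (129045901 to 129057471), Klre1 (129578286 to 129585827), Klrd1 (129591811 to 129598775), Klrk1 (129610323 to 129623864), Klrc2 (129656346 to 129660596) and Klrc1 (129666016 to 129678973) share 0.9 Mb of it. Klrg1 lies apart from them at 122270597 to 122282833. Ncr1 is on chromosome 7 at 4337724 to 4345164.

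The table's interval for Klrb1c contains the whole interval of Klrb1b. Reads without strand information that fall there could be counted for either gene or for neither, so the levels of both are uncertain. Klrc1 and Klrc2 raise a similar doubt, because their coding sequences are alike at the end. The last 90 coding bases before the stop codon were read on the minus strand of GRCm38 chromosome 6, at chr6:129674862-129674951 for Klrc1, chr6:129656374-129656463 for Klrc2 and chr6:129639088-129639177 for their relative Klrc3. They are shown because the ratio of Klrc1 to Klrc2 is described further on. The capital marks the base that is not the same in all 3 genes.
Klrc1: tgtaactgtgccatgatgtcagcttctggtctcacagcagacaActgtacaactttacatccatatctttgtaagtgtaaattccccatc
Klrc2: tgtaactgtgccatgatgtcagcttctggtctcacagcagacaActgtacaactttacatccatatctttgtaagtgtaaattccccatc
Klrc3: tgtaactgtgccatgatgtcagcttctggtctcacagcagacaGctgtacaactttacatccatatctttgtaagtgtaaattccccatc
Klrc1 and Klrc2 were identical at 90 of 90 bases, and Klrc3 matched each of them at 89. The longest coding stretch shared without a mismatch was 100 bases between Klrc1 and Klrc2 and 203 bases between Klrc2 and Klrc3, longer than a read of 51 bases. Over whole annotated transcripts, 37.9% of the 51-base windows of Klrc1 and 16.0% of those of Klrc2 also occurred in another gene. The share was 27.0% for Klrb1b and 16.8% for Klrb1c, mostly shared with a read-through transcript annotated as Gm44511, and 0.252% for Klre1. Ncr1, Klrk1, Klrd1, Klrb1f and Klrg1 had none, so no exact match of read length to another annotated gene was found for them. Matches with mismatches, or outside annotated transcripts, were not searched.

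Promoter windows from 250 bases before to 50 bases after the start of transcription were available from RefSeq (GRCm38.p6) for 8 of the 10 genes, all but Klrd1 and Klrg1. The windows of Ncr1 (chr7:4337474-4337773, plus strand), Klrk1 (chr6:129623815-129624114, minus strand) and Klrc2 (chr6:129660547-129660846, minus strand) belong to genes whose AML and healthy libraries did not overlap. That of Klrc1 (chr6:129678924-129679223, minus strand), whose groups overlapped, is printed for comparison with Klrc2. Capitals mark TGTGGT or its reverse complement ACCACA, the core bound by RUNX factors, which are regulators of natural killer cell and ILC genes.
Ncr1: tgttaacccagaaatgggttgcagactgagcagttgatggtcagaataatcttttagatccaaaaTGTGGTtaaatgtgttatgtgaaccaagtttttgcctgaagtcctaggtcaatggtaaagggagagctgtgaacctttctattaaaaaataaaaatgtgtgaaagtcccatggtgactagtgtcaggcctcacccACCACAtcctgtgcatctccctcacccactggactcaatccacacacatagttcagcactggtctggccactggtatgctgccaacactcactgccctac
Klrk1: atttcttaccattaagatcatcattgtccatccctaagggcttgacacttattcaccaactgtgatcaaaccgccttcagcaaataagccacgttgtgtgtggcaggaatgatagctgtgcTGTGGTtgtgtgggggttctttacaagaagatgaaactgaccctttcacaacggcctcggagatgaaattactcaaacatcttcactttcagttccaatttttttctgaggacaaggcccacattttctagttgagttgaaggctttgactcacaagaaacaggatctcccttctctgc
Klrc2: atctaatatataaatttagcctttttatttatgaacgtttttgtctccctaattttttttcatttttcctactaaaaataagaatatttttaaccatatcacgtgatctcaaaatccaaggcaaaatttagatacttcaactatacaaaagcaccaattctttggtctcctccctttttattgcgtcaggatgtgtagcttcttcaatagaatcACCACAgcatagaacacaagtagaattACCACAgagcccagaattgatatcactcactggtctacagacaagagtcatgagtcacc
Klrc1: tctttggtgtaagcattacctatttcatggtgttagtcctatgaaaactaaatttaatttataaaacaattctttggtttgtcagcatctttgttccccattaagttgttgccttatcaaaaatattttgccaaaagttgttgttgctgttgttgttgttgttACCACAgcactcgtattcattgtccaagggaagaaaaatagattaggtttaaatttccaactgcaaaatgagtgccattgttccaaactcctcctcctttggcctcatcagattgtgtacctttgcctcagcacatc
Some genes have several windows, and the 8 genes have 12. This core was found in 8 of the 12 windows, belonging to 6 genes, all but Klrb1b and Klrb1f, and in 16.8% of all 32851 promoter windows. Klrb1f, which lacks it and is not printed, is the remaining gene whose AML and healthy libraries did not overlap. The printed windows are therefore no guide to a link between the core and that separation, which was not tested. The printed windows of Ncr1 and Klrc2 held 2 copies each and those of Klrk1 and Klrc1 held 1 each. The ETS motif GGAAGT, on either strand, occurred in 4 of the 12 windows, those of Klrb1b, Klrb1c and Klrb1f, and in 23.8% of all windows. A second ETS form, CAGGAA, occurred in 3 of the 12 windows, of Klrb1c, Klrc2 and Klrk1, and in 30.6% of all windows. The longer RUNX form TGTGGTT, which overlaps the core, occurred in 4 of the 12, of Klre1, Klrk1 and Ncr1, and in 5.27% of all windows. TATAAA was found in 2 of the 12, of Klrc1 and Klrc2, and in 13.6% of all windows, and the T-box motif GGTGTGA in 0 of the 12 and 3.98% of all windows. These 6 motifs are letter matches and were tested against nothing.

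Total counts were 47081693, 51284691 and 45135093 in AML 1, 2 and 3, and 50366362, 51114701 and 48999439 in healthy 1, 2 and 3. At this depth 3 reads, the limit that a count of 0 allows, equal 0.0574 to 0.0642 CPM (counts scaled to a common library size), counting error only. The 11 ILC1 markers in the table summed to between 8955 and 9765 CPM in AML libraries and between 9603 and 10315 CPM in healthy libraries. Itga1, which encodes CD49a, averaged 417 ± 41.3 CPM in AML and 378 ± 20.3 CPM in healthy libraries (SD, n = 3 each). Eomes, a transcription factor of conventional natural killer cells, was low, at 17.1, 10.3 and 5.93 CPM in AML 1, 2 and 3 against 4.96, 7.72 and 10.2 CPM in healthy 1, 2 and 3. The 12 conventional natural killer markers summed to between 540.3 and 828 CPM in AML and between 646 and 673 CPM in healthy libraries, with Klra4 at 0 reads in all 6. The 12 T cell markers summed to between 1213 and 1511 CPM in AML and between 1571 and 1860 CPM in healthy libraries. Of 8 tested macrophage markers 8 had a positive log2 fold change, AML minus healthy, where 6483 of 12469 tested genes were positive. The groups were fully apart, with AML higher, for 4 of these 8, beside 8.2% of all tested genes. The 10 macrophage markers in the table summed to between 119 and 190.2 CPM in AML and between 24.4 and 84.3 CPM in healthy libraries. Monocyte and neutrophil markers (8 genes) summed to between 499 and 654 CPM in AML libraries, against 519.6 CPM in healthy 1, 35.9 CPM in healthy 2 and 42.7 CPM in healthy 3. Their leading gene Lyz2, a myeloid lysozyme, had 503, 567 and 434 CPM in AML 1, 2 and 3 and 459, 35.0 and 33.1 CPM in healthy 1, 2 and 3. No marker of these 2 myeloid lists was at 0 in all libraries. Healthy 1 thus stood apart from healthy 2 and 3 by the sum of these markers, most of which was Lyz2. Not every marker of this list did so, as S100a8 had 2.35, 0.302 and 2.62 CPM in healthy 1, 2 and 3. The macrophage markers of healthy 1 were mixed, with Csf1r above and C1qa, C1qb and C1qc below the values of healthy 2 and 3. S100a8 and these macrophage genes were chosen after their values were seen. AML 1 differed more from AML 2 and 3 than these did from each other. The chi-square per degree of freedom was 86.7 and 103 against 28.1. The part of other cell types in the receptor values was not tested. As these are bulk samples, fewer cells of a type and less RNA per cell cannot be told apart.

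The 10 receptor genes took 0.752%, 0.904% and 0.941% of all counts in AML 1, 2 and 3, and 0.779%, 0.765% and 0.818% in healthy 1, 2 and 3. AML 2 and 3 lay above all healthy libraries in this share, while AML 1 lay below all of them. To compare genes with each other, CPM was divided by gene length to give RPKM. By RPKM, Klrd1 ranked 29th of 12469 tested genes, Ncr1 37th, Klre1 48th, Klrb1c 87th, Klrk1 117th and Klrc1 118th, and 8 of 10 receptor genes were in the top 3%. CD94, the shared partner chain, had the highest level of the 10, with Klrd1 at 1378 ± 248 RPKM in AML and 1277 ± 44.2 RPKM in healthy libraries. Ncr1 had 1117 ± 89.0 RPKM in AML and 974 ± 33.1 RPKM in healthy libraries. Klre1 had 768 ± 136 RPKM in AML and 735 ± 24.5 RPKM in healthy libraries, and Klrb1c 491 ± 58.1 RPKM in AML and 551 ± 40.2 RPKM in healthy libraries. Klrk1 and Klrc1, the genes of NKG2D and NKG2A, were nearly equal. Klrk1 had 438 ± 29.2 RPKM in AML and 371 ± 21.4 RPKM in healthy libraries, and Klrc1 had 395 ± 16.4 RPKM in AML and 409 ± 22.0 RPKM in healthy libraries. The inhibitory Klrb1b followed at 224 ± 9.36 RPKM in AML and 236 ± 17.9 RPKM in healthy libraries, and Klrb1f at 204 ± 9.06 RPKM in AML and 176 ± 17.1 RPKM in healthy libraries. Klrc2 and Klrg1 were far lower. Klrc2 had 29.5 ± 4.87 RPKM in AML and 22.5 ± 1.62 RPKM in healthy libraries, and Klrg1 had 7.74 ± 1.28 RPKM in AML and 7.88 ± 2.62 RPKM in healthy libraries (SD, n = 3 each throughout).

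This order of neighbours held in 6 of 6 libraries for every pair but Klrk1 and Klrc1, where it held in 3 of 6. Klrk1 was above Klrc1 in every AML library and below it in every healthy library. Ranges of neighbours overlapped in AML libraries for Klrd1 and Ncr1 and for Klrb1c and Klrk1, and in both groups for Klrk1 and Klrc1. Between NKG2A and NKG2C, NKG2A was thus the more abundant partner of CD94 at the mRNA level. The size of this gap is uncertain because Klrc1 and Klrc2 share read-length sequence. Their relative Klrc3 averaged less than Klrc2, at 19.8 ± 4.45 RPKM in AML and 14.6 ± 2.12 RPKM in healthy libraries.

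**Figure D1:**
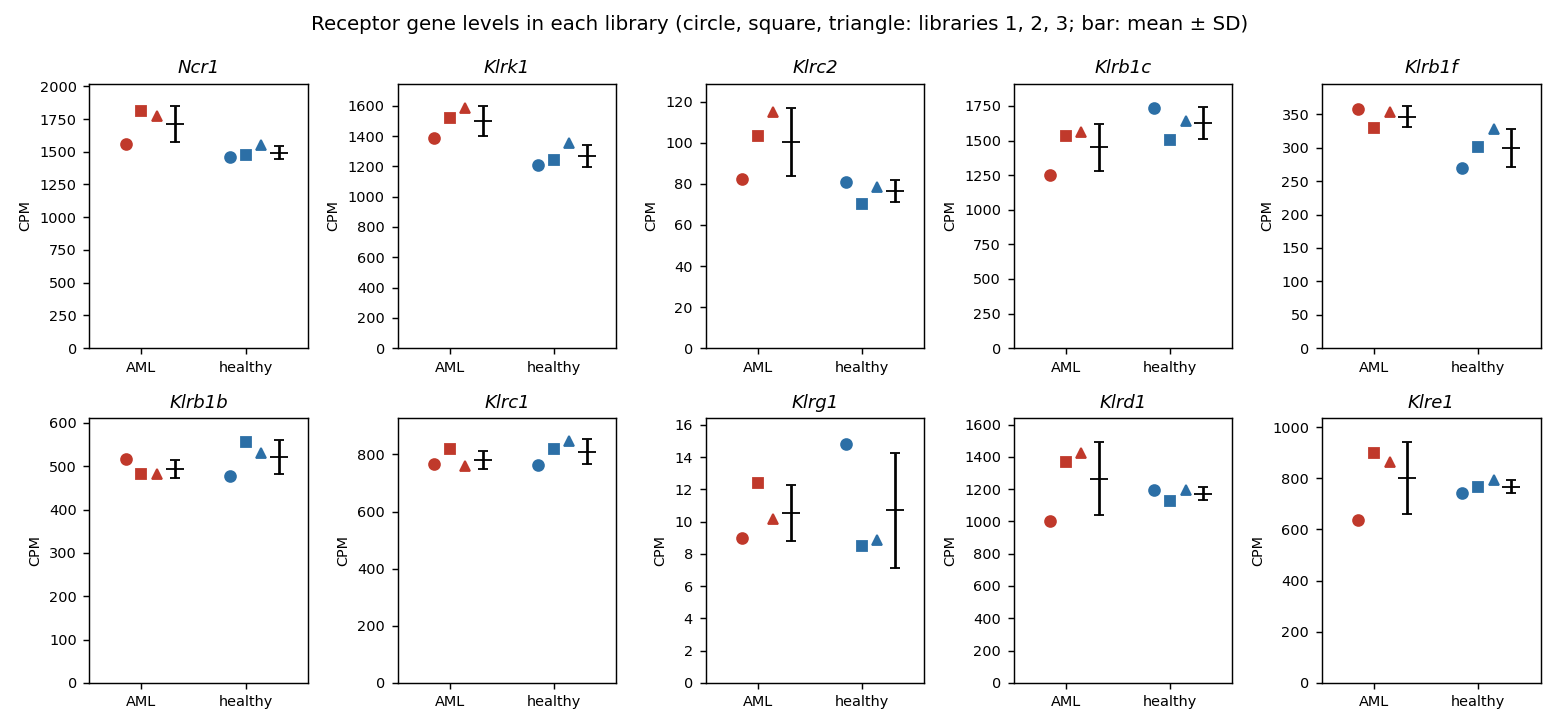
Level of each receptor gene in every library, as CPM on axes that start at 0, with AML left of healthy, a symbol for each library and a bar for the mean and SD of 3 libraries. Klrg1 lies at 14.8 CPM or less and Klrc2 at 115 CPM or less, while the other 8 genes lie at 270.3 CPM or more in every library.

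The question was whether the receptor genes differ between ILC1 of leukaemic and healthy livers. In the quasi-likelihood test of edgeR, 0 of the 10 genes passed an adjusted p of 0.05, as did 0 of all 12469 tested genes (0%), with a smallest adjusted p of 0.0764 over all genes. At an unadjusted p below 0.05, 4 receptor genes were higher in AML and 0 were lower, where 5.08% of all tested genes were higher and 3.75% lower. The same 4 genes, Klrc2, Klrk1, Ncr1 and Klrb1f, had every AML library above every healthy library, as had 8.2% of all tested genes. In 0 of 10 genes did every AML library lie below every healthy library, against 7.34% of all tested genes. Over the 10 genes 6 fold changes were positive and 4 negative, with a median log2 fold change of 0.09, against 0.01 over all tested genes, of which 6483 were positive.

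These counts at an unadjusted p changed when libraries were left out. A smaller set also has less power, so a lower count alone does not point to a particular library. Leaving out AML 3 left 0 receptor genes higher at an unadjusted p below 0.05 (3.72% of all tested genes), and leaving out healthy 2 also left 0 (3.76%). Leaving out AML 2 left 1, Klrk1 (3.78% of all), and leaving out healthy 1 left 1, Klrc2 (6.2% of all). Without healthy 3 there were 3 (4.88% of all), and without AML 1 there were 5 (6.95% of all). Without AML 1 and healthy 1 there were 4 (8.71% of all), and both AML libraries lay above both healthy libraries for 7 of 10 genes, as for 24.2% of all. The groups of Klrc2, Klrk1, Ncr1 and Klrb1f stayed apart in each of these sets, as the removal of a library cannot make them overlap.

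**Figure D2:**
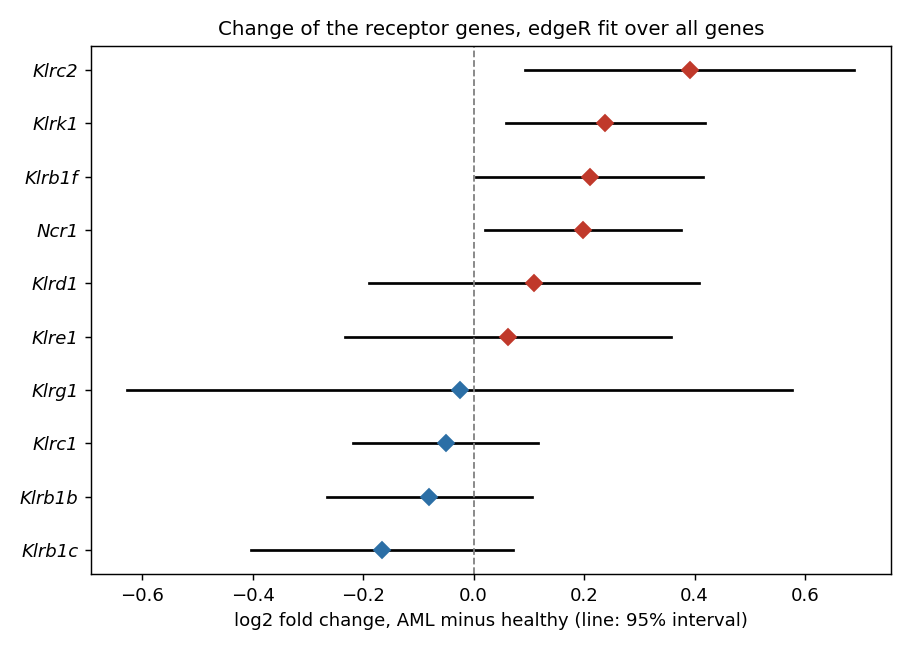
Log2 fold change of each receptor gene, AML minus healthy, from the edgeR fit over all genes, with its 95% interval as a line and 0 as a dashed line. The intervals of Klrc2, Klrk1, Klrb1f and Ncr1 lie above 0 before adjustment, and those of the other 6 genes span 0.

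Among the activating receptors, Ncr1 encodes NKp46, the natural cytotoxicity receptor of the mouse, which signals through CD3 zeta and the Fc receptor gamma chain. Ncr1 measured 1558, 1813 and 1771 CPM in AML 1, 2 and 3, against 1458, 1473 and 1552 CPM in healthy 1, 2 and 3. The lowest AML library, AML 1, was just above the highest healthy library, healthy 3. The log2 fold change was 0.20 ± 0.08 (SE; 95% interval 0.02 to 0.38), a ratio of 1.15, with an edgeR adjusted p of 0.538 (unadjusted p = 0.0333).

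Klrk1 encodes NKG2D, which recognises stress-induced ligands of the Rae-1, H60 and Mult1 families and couples to the adaptor DAP10. Klrk1 measured 1390 CPM in AML 1, 1517 CPM in AML 2 and 1586 CPM in AML 3, against 1213, 1243 and 1352 CPM in healthy 1, 2 and 3. All AML libraries were above all healthy libraries, and healthy 3 came close to AML 1. AML minus healthy gave a log2 fold change of 0.24 ± 0.08 (SE; 95% interval 0.06 to 0.42), a ratio of 1.18, with an edgeR adjusted p of 0.479 (unadjusted p = 0.0159).

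Klrc2 encodes NKG2C, the activating partner of CD94. It measured 82.5, 104 and 115 CPM in AML 1, 2 and 3, against 80.9, 70.4 and 78.4 CPM in healthy 1, 2 and 3. AML 2 and 3 stood clear of the healthy libraries, while AML 1 was almost level with healthy 1. Its log2 fold change of 0.39 ± 0.13 (SE; 95% interval 0.09 to 0.69), a ratio of 1.31 with an interval of 1.07 to 1.61, was the largest of the 10, with an edgeR adjusted p of 0.479 (unadjusted p = 0.0165). Without AML 1 the log2 fold change was 0.51 and the edgeR adjusted p 0.0554. Without AML 1 and healthy 1 together, an alternative in which 1.79% of tested genes were called higher, it was 0.56 ± 0.10 (SE) with an edgeR adjusted p of 0.0250, and Klrc2 was then the single receptor gene past the threshold. For Klrc2, AML 1 was the lowest AML library and healthy 1 the highest healthy library, so leaving both out had to widen its difference. The adjusted p of Klrc2 ran from 0.0250 to 0.818 over 17 alternatives. Reads shared with Klrc1 and Klrc3 could add to or take from these counts.

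Klrb1c encodes NK1.1, the antigen by which natural killer cells and ILC1 of C57BL/6 mice are stained, and it signals through the Fc receptor gamma chain. Klrb1c measured 1252, 1535 and 1562 CPM in AML 1, 2 and 3, against 1737, 1500.5 and 1641 CPM in healthy 1, 2 and 3. The groups overlapped, with AML 1 below all other libraries. The log2 fold change was -0.17 ± 0.10 (SE; 95% interval -0.40 to 0.07), with an edgeR adjusted p of 0.640. Without AML 1 it was -0.071.

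Klrb1f encodes NKR-P1F, a receptor of the same family whose ligand is the lectin-like protein Clr-g. It measured 358, 329.2 and 354 CPM in AML 1, 2 and 3, against 270.3, 301 and 328.4 CPM in healthy 1, 2 and 3. AML 2 and healthy 3 were almost equal, and the groups did not overlap. On the log2 scale AML minus healthy was 0.21 ± 0.09 (SE; 95% interval 0.00 to 0.42), a ratio of 1.16, with an edgeR adjusted p of 0.564 (unadjusted p = 0.0466). Without healthy 1 it was 0.14.

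Among the inhibitory receptors, Klrb1b encodes NKR-P1B, which binds Clr-b on neighbouring cells. It measured 517, 481 and 481 CPM in AML 1, 2 and 3, against 478, 556 and 530.1 CPM in healthy 1, 2 and 3. The groups overlapped, and healthy 1 was the lowest of the 6. The log2 fold change was -0.08 ± 0.08 (SE; 95% interval -0.27 to 0.11), with an edgeR adjusted p of 0.759, and it ran from -0.14 without healthy 1 to -0.040 without healthy 2.

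Klrc1 encodes NKG2A, the inhibitory partner of CD94 and a checkpoint receptor in studies of tumour immunity. It measured 765, 819 and 760.2 CPM in AML 1, 2 and 3, against 762, 818 and 847 CPM in healthy 1, 2 and 3. The groups overlapped almost fully. AML minus healthy gave a log2 fold change of -0.05 ± 0.07 (SE; 95% interval -0.22 to 0.12), with an edgeR adjusted p of 0.827. It ran from -0.096 without healthy 1 to -0.025 without healthy 3, and it was 0.0119 with library totals as the scaling.

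Klrg1 encodes a cadherin-binding inhibitory receptor that marks mature natural killer cells. It was counted at 420, 648 and 484 reads in AML 1, 2 and 3, against 731, 421 and 426 reads in healthy 1, 2 and 3, which equals 8.98, 12.4 and 10.2 CPM in AML and 14.8, 8.47 and 8.85 CPM in healthy libraries. Healthy 1 was the highest of the 6, and the other healthy libraries were the lowest. The log2 fold change was -0.03 ± 0.26 (SE; 95% interval -0.63 to 0.58), with an edgeR adjusted p of 0.980. Without healthy 1 it was 0.28 and without AML 1 it was 0.0758, and with library totals as the scaling it was 0.0381.

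The 2 remaining genes encode chains that pair with other receptors. Klrd1, the CD94 chain needed to bring NKG2A and NKG2C to the surface, measured 1004, 1366 and 1424 CPM in AML 1, 2 and 3, against 1197, 1126 and 1195 CPM in healthy 1, 2 and 3. AML 1 was the lowest of all 6 libraries, and AML 2 and 3 were the highest. On the log2 scale AML minus healthy was 0.11 ± 0.13 (SE; 95% interval -0.19 to 0.41), with an edgeR adjusted p of 0.789. Without AML 1 it was 0.25, without AML 2 it was 0.049 and without AML 3 it was 0.015. Without healthy 2 it was 0.072.

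Klre1 encodes a chain that, in mice and rats, pairs with KLRI1 or KLRI2 to form an inhibitory or an activating receptor. It measured 639, 900.0 and 864 CPM in AML 1, 2 and 3, against 742, 766 and 793 CPM in healthy 1, 2 and 3. It followed Klrd1, with AML 1 the lowest library and AML 2 and 3 the highest. The log2 fold change was 0.06 ± 0.13 (SE; 95% interval -0.23 to 0.36), with an edgeR adjusted p of 0.884. Without AML 2 it was -0.03, and without AML 1 it was 0.20 with an edgeR adjusted p of 0.240.

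The spread within groups was set in large part by AML 1. AML 1 was the lowest AML library for 7 of the 10 genes and the highest for Klrb1b and Klrb1f. The highest AML library exceeded the lowest by a factor of 1.42 for Klrd1, 1.41 for Klre1 and 1.40 for Klrc2, while the healthy libraries differed by 1.06, 1.07 and 1.15 for the same genes. Klrg1 was the opposite case, with a factor of 1.38 among AML and 1.75 among healthy libraries. For Klrb1c, Ncr1, Klrk1, Klrd1, Klrc2 and Klre1 the coefficient of variation was larger among AML libraries, and for the other 4 genes it was larger among healthy libraries.

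Within a library, ratios of genes per length do not depend on how libraries are scaled, and they describe the balance of receptor chains. The ratio of inhibitory Klrc1 to activating Klrc2 was 16.0, 13.6 and 11.4 in AML 1, 2 and 3, against 16.2, 20.0 and 18.6 in healthy 1, 2 and 3. Every AML ratio was below every healthy ratio, AML 1 only just so, and the means were 13.6 ± 2.30 in AML and 18.3 ± 1.92 in healthy libraries (SD, n = 3 each). Because Klrc1 and Klrc2 share read-length sequence, the size of this ratio is uncertain.

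The ratio of Klrk1 to Hcst, the gene of the adaptor DAP10 through which NKG2D signals, was 0.849, 0.859 and 0.946 in AML 1, 2 and 3, against 0.654, 0.735 and 0.746 in healthy 1, 2 and 3. These did not overlap either, with means of 0.885 ± 0.0533 in AML and 0.712 ± 0.0504 in healthy libraries. The ratio of Klrc1 to its partner Klrd1 was 0.354, 0.278 and 0.248 in AML 1, 2 and 3 and 0.296, 0.338 and 0.329 in healthy 1, 2 and 3. That of Klrb1c to Klrb1b was 1.81, 2.38 and 2.43 in AML 1, 2 and 3 and 2.71, 2.02 and 2.31 in healthy 1, 2 and 3. Both overlapped between the groups, AML 1 being the highest and the lowest library in turn. None of these ratios was tested, and with 3 libraries against 3 an exact permutation test cannot go below p = 0.1.

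**Figure D3:**
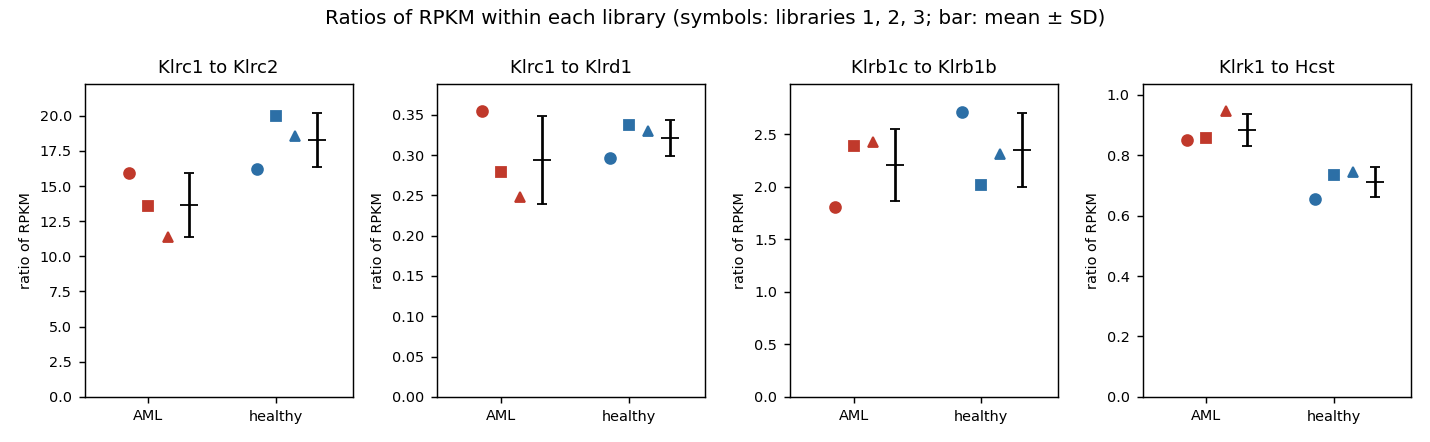
Ratios of RPKM within each library for 4 pairs of genes, with AML left of healthy, a symbol for each library and a bar for the mean and SD of 3 libraries. The ratios of Klrc1 to Klrc2 and of Klrk1 to Hcst separate the groups, and the other ratios overlap.

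Adaptors carry the signal of the activating receptors. Of 16 genes of adaptors and proximal signalling, 15 had a negative and 1 a positive fold change, where 5986 of 12469 tested genes were negative. Their median log2 fold change was -0.11, against 0.01 over all tested genes. None passed the adjusted p in edgeR. At an unadjusted p below 0.05, 3 were lower and 0 higher, beside 3.75% lower and 5.08% higher of all tested genes, and 5 had every AML library below every healthy library, beside 7.34% of all. With library totals as the scaling 12 were negative and 2 lay below all healthy libraries, so the split depends in part on the scaling. Hcst measured 217 ± 8.49 CPM in AML and 229 ± 10.9 CPM in healthy libraries, with a log2 fold change of -0.08 ± 0.07 (SE). Tyrobp, the adaptor DAP12, which is also made by myeloid cells, had a log2 fold change of -0.05 ± 0.09 (SE), at 1620 ± 182 CPM in AML and 1674 ± 52.7 CPM in healthy libraries. Fcer1g, the Fc receptor gamma chain used by NK1.1 and NKp46, measured 1879 ± 149 CPM in AML and 1988 ± 91.5 CPM in healthy libraries, with a log2 fold change of -0.08 ± 0.08 (SE).

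Cd247 encodes CD3 zeta, the other adaptor of NKp46 and a chain of the T cell receptor. It measured 91.6, 98.7 and 93.6 CPM in AML 1, 2 and 3, against 100.5, 155 and 144 CPM in healthy 1, 2 and 3, so the groups did not overlap. Its log2 fold change was -0.49 ± 0.15 (SE), the largest of the list, with an edgeR adjusted p of 0.469. The T cell marker sums were lower in every AML library as well, but most of each sum was Cd3g, which averaged 1140 CPM in AML and 1474 CPM in healthy libraries. Of 11 tested T cell markers 5 fold changes were positive and 6 negative, with a median log2 fold change of -0.03, and that of Cd3e, chosen after its values were seen, was 0.38 ± 0.58 (SE). The part of T cell transcripts in the Cd247 value was not tested. Vav1, an exchange factor downstream of DAP10, had a log2 fold change of -0.22 ± 0.07 (SE) and an edgeR adjusted p of 0.479. Inhibitory receptors recruit phosphatases. Ptpn6, which encodes SHP-1, measured 534 ± 56.5 CPM in AML and 594 ± 45.5 CPM in healthy libraries, with a log2 fold change of -0.15 ± 0.10 (SE). Inpp5d, which encodes SHIP-1, measured 374 ± 26.2 CPM in AML and 379 ± 17.2 CPM in healthy libraries. Of 3 phosphatase genes, 1 had a positive and 2 a negative fold change, and with other scalings between 0 and 2 were positive.

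**Figure D4:**
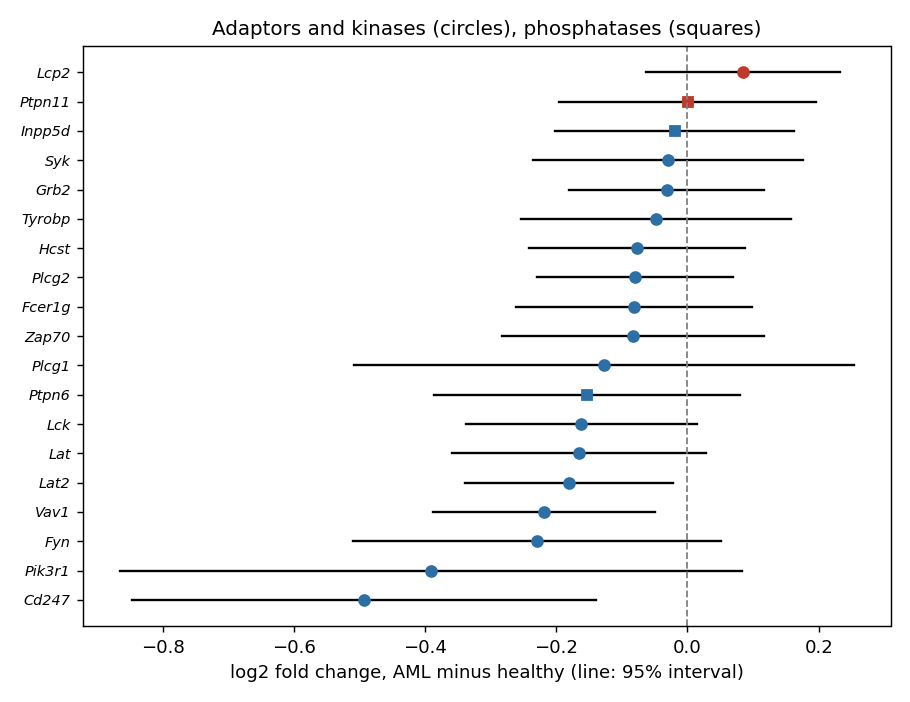
Log2 fold change, AML minus healthy, of 16 adaptor and signalling genes (circles) and 3 phosphatase genes (squares), with 95% intervals from the edgeR fit over all genes. Of the 16 adaptor genes 15 lie left of 0, with Cd247 at -0.49 farthest from it.

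Of 21 genes of known ligands 19 were in the table and 8 had enough reads to be tested. Fold changes of 5 were positive and of 3 negative, with a median log2 fold change of 0.09, and none passed the adjusted p in edgeR. At an unadjusted p below 0.05, 2 were higher and 1 lower, beside 5.08% higher and 3.75% lower of all tested genes. H2-T23, which encodes the heavy chain of Qa-1, the ligand of NKG2A and NKG2C, measured 606, 649 and 608 CPM in AML 1, 2 and 3, against 555, 599 and 571 CPM in healthy 1, 2 and 3. The groups did not overlap, and the log2 fold change was 0.11 ± 0.07 (SE), with an edgeR adjusted p of 0.640. Clec2d, which encodes the NKR-P1B ligand Clr-b, measured 18.2, 24.3 and 31.2 CPM in AML 1, 2 and 3, against 13.8, 16.2 and 21.5 CPM in healthy 1, 2 and 3. The change was 0.52 ± 0.23 on the log2 scale (SE), with an edgeR adjusted p of 0.569. Clec2i, chosen after its values were seen because it encodes Clr-g, the ligand of NKR-P1F, measured 87.8, 140.4 and 156 CPM in AML 1, 2 and 3, against 72.2, 69.7 and 104 CPM in healthy 1, 2 and 3. For both Clec2 genes AML 1 lay within the healthy range.

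Cdh1, which encodes E-cadherin, the ligand of KLRG1, measured 59.9, 57.0 and 50.1 CPM in AML 1, 2 and 3, against 78.3, 64.7 and 78.2 CPM in healthy 1, 2 and 3. Every AML library was below every healthy library, and the log2 fold change was -0.41 ± 0.11 (SE), with an edgeR adjusted p of 0.404. Cfp, the gene of properdin, which myeloid cells make and which has been reported to bind NKp46, measured 4.75, 4.90 and 5.19 CPM in AML 1, 2 and 3, against 2.17, 1.21 and 1.37 CPM in healthy 1, 2 and 3. Its log2 fold change of 1.64 ± 0.31 (SE), with an edgeR adjusted p of 0.397, went with the macrophage marker sums given above, whose part in it was not tested. Of the NKG2D ligand genes, Ulbp1, which encodes Mult1, measured 6.16, 4.35 and 2.54 CPM in AML 1, 2 and 3, against 3.22, 4.60 and 5.61 CPM in healthy 1, 2 and 3, with a log2 fold change of -0.04 ± 0.37 (SE). H60b had 7 to 22 reads in AML libraries and 11 to 20 reads in healthy libraries. Raet1a, Raet1c and H60c had 0 reads in all 6 libraries, each of which allows up to 3 reads, and these 5 genes were chosen after their values were seen. Raet1d had 4 reads in healthy 3, Raet1e had 1 read in healthy 1, and both had 0 reads elsewhere. They too were chosen after their values were seen. H60b, Raet1a, Raet1c, Raet1d and Raet1e each have an interval in the table that overlaps others of this set. Reads there could have been counted for none of these genes, so their counts and zeros are uncertain.

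Of 10 related receptor genes, 9 were in the table and 6 were tested, with 2 positive and 4 negative fold changes and a median log2 fold change of -0.17. None passed the adjusted p in edgeR, and 0 were higher or lower at an unadjusted p below 0.05. Klri2, the activating partner of KLRE1, measured 239, 300.0 and 268 CPM in AML 1, 2 and 3, against 305, 302 and 319 CPM in healthy 1, 2 and 3. It was the single relative with every AML library below every healthy library, a separation lost with upper quartile scaling or library totals, at a log2 fold change of -0.20 ± 0.09 (SE) and an edgeR adjusted p of 0.569. Klrc3, which encodes NKG2E, measured 11.3, 14.5 and 17.8 CPM in AML 1, 2 and 3, against 11.2, 9.05 and 12.1 CPM in healthy 1, 2 and 3. Its log2 fold change of 0.43 ± 0.21 (SE), with an edgeR adjusted p of 0.574, was close to that of Klrc2, with which it shares sequence, and its groups overlapped.

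The profile of each receptor gene over the 6 libraries was compared with those of 8344 genes at 10 CPM or more, by the root mean square difference of log2 CPM centred on each gene. The closest genes are given for the 3 receptor genes with the widest spread. For Klrc2 these were Clcn6 at 0.0408 and Zfp747 at 0.0449, and for Klrd1 they were Itpripl2 at 0.0397 and Zfp512 at 0.0435. Klrg1 had no neighbour as near, with Anxa4 at 0.147 and Txndc12 at 0.148. With 6 libraries and so many genes compared, such distances only describe these libraries.

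In the authors' deposited table of 9769 genes, the log2 fold changes of all 10 receptor genes differed from the ones given here by less than 0.01. That table lists Klrc2 at 0.40 with an adjusted p of 0.226, Klrk1 at 0.25 with 0.605 and Klrb1f at 0.22 with 0.721. It lists Ncr1 at 0.20 with 0.768 and Klrg1 at -0.02 with 0.999, all in the authors' deposited table's own test. In that test the unadjusted p was 0.00449 for Klrc2 and 0.0478 for Klrk1, but 0.0782 for Klrb1f and 0.0995 for Ncr1. Of the 9769 genes in that table, 74 passed an adjusted p of 0.05 in the same test.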

How the data were processed

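The authors deposited whole-number read counts per gene for 24091 symbols in 6 libraries, with gene positions and lengths (kb) beside them. RNA (2 ng) was amplified with a poly(A)-primed SMART-Seq kit and sequenced without strand information as single reads of 51 cycles, per the labels' protocols. Tools listed in the submitters' processing notes are edgeR 3.28.1, HTSeq 0.6.0, STAR 2.6.0 and bcl2fastq 2.18.0.12, beside the builds mm10 and hg19, with no roles, and the treatment of reads matching several genes is not given in the sources used here. The authors' deposited comparison table holds, per the file headers, log2 fold changes, log2 average CPM, a likelihood ratio score, p-values and adjusted p-values, which were used only where that table is named. Its deposited values per library behave as RPKM and were not used.

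Groups came from the disease label. The 10 genes were fitted with all others in edgeR 4.0.16 (R 4.3.3) by its quasi-likelihood F test, with TMM scaling, the filterByExpr minimum count of 10 and the group as the single term, two-sided, with Benjamini-Hochberg adjustment over 12469 tested genes. All 10 passed the filter. The SE is the absolute log2 fold change divided by the square root of F. CPM are on TMM-scaled library sizes, RPKM divide CPM by the table's gene length, and means are given with SD. Read-length sharing was counted in GENCODE M21 transcripts, and promoters are RefSeq windows of GRCm38.p6. Alternatives used limma 3.58.1 (voom), DESeq2 1.42.0, other scalings and filters, a replicate block, Lyz2 as a covariate and left-out libraries. The script was tested on simulated data. The members and all lists were chosen with earlier results of these data known. The rule for named genes took the 10 receptors and the markers Itga1, Eomes and Lyz2. It also took the adaptors, phosphatases and ligands Hcst, Tyrobp, Fcer1g, Cd247, Ptpn6, Inpp5d, Clec2d and H2-T23. From each list other than the marker lists it took up to 2 genes of smallest p, and it took the nearest profiles. No 2 libraries of the same group were alike within sampling noise.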

Additional observations from a re-analysis of the deposited data

How the results depend on the processing

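Of 10 receptor genes, 0 passed an adjusted p of 0.05 in 16 of 17 alternatives to the edgeR fit, and 1 (Klrc2) passed without healthy 1 and AML 1. Leaving out both of these libraries had to widen the difference of Klrc2, as described above. Over all genes the count of 0 became 1 with upper quartile scaling, 2 with library totals, 2 with no filter (16614 genes), 100 with the likelihood ratio test, 143 with DESeq2 (104 higher and 39 lower) and 444 without healthy 1 and AML 1, and it was 0 to 147 with each library left out in turn, 147 without AML 1 and 89 without healthy 1. Receptor genes higher at an unadjusted p below 0.05 numbered 0 to 5 with each library left out, and 7 had every AML library above every healthy library without healthy 1 and AML 1, as had 24.2% of tested genes; both counts were added after the data were seen. Klrc2, Klrk1, Ncr1, Klrb1f and Klrd1 stayed positive and Klrb1c negative in all 17. Klrg1, at -0.53 with Lyz2 as a covariate and from -0.18 without healthy 2 to 0.28 without healthy 1, turned positive with library totals (0.0381), voom (0.0169), the replicate block (0.0126), without AML 1 (0.0758) and without healthy 1 and AML 1 (0.383). Klrc1 did so with library totals (0.0119) and Lyz2 as a covariate (0.0348), Klrb1b with Lyz2 (0.0481), and Klre1, at 0.20 without AML 1, turned negative without AML 2 (-0.0311). The causes were not tested. With the replicate number as a block 0 receptor genes passed, the smallest adjusted p being 0.328. Correlations of deviations were 0.12, -0.04 and 0.13 for AML and healthy libraries of equal number, and ran from -0.17 to 0.05 for unequal numbers. With 3 libraries per group these values cannot decide whether libraries were paired. Counting error weighs most on Klrg1, the receptor gene with the fewest reads, 420 to 731 in a library.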
